A study of Mus musculus with 10 samples.

Results

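Blood vessels in inflamed joint lining were followed here through 10 genes, taken by name. They were 6 vessel genes, made largely by endothelial cells (Kdr, Flt1, Tek, Tie1, Pecam1 and Cdh5), and 4 genes of growth factor supply and oxygen sensing (Vegfa, Angpt1, Angpt2 and Hif1a). Each gene was represented by the probe set of highest mean among those whose platform annotation named it alone, and all 10 had one, of 18128 genes so represented. Tissue was synovium of the left hind leg of male DBA/1J mice, bought at 5 weeks of age and labelled as 8 weeks old. Arthritis was raised in every mouse by an injected antibody to type II collagen (1 mg, day 8) followed by lipopolysaccharide (25 µg, day 11), a model called CAIA, and the synovium was collected on day 12. The vehicle mice, 5 in number, received plain corn oil; the 5 others received daily oral maslinic acid, an olive triterpene, suspended in it (200 mg per kg). The arrayed mice were selected from their groups by a criterion not given, and the arthritis-free mice of the design were not analysed here, so the values say nothing about what arthritis itself did to these genes.

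Vessel growth is steered by 2 ligand systems. Vegfa encodes the vascular endothelial growth factor that acts mainly through the receptor kinase VEGFR2, the product of Kdr, while the VEGFR1 product of Flt1 binds the same ligand and acts in large part as a decoy. Angpt1 encodes angiopoietin 1, made by cells around the vessel, which activates the receptor TIE2, the product of Tek, and stabilises vessels. Angpt2 encodes angiopoietin 2, released by activated endothelium, which can oppose it, and Tie1 encodes a related receptor that modulates TIE2. Pecam1 (CD31) and Cdh5 (VE-cadherin) encode adhesion proteins of endothelial contacts, and Hif1a the oxygen-regulated subunit of the factor that induces Vegfa in hypoxia. New vessel growth is a known feature of inflamed synovium.

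The promoters of the 4 receptor kinases are shown because ETS factors, which bind a GGAA core, are known regulators of endothelial genes. RefSeq windows of GRCm38.p6, from 250 bases before to 50 after an annotated start, were found for 6 of the 10 members (Kdr, Flt1, Tek, Tie1, Vegfa and Hif1a). Each line reads 5′ to 3′ on the gene's strand. Capitals mark GGAA or its reverse complement TTCC, and the hypoxia response cores ACGTG and GCGTG or their reverse complements CACGT and CACGC. The longest capital run in Kdr is a GCGTG and a GGAA side by side.
Tie1: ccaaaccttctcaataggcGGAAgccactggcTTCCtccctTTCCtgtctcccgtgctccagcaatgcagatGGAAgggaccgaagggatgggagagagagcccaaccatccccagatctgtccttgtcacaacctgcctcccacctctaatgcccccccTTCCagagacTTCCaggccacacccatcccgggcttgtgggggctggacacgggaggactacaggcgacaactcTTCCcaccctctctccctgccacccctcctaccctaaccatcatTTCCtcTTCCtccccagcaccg
Kdr: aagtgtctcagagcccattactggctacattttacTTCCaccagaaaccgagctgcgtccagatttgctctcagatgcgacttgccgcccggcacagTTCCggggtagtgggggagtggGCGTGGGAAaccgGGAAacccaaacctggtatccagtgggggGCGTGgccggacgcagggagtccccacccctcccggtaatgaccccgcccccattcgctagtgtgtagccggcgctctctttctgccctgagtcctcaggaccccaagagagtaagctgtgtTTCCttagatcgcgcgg
Flt1: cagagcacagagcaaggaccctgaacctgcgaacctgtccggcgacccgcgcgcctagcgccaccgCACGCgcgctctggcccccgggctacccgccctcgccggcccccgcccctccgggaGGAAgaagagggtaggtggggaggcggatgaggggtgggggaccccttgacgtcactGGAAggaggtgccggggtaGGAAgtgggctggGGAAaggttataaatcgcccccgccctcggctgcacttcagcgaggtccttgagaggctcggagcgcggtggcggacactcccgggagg
Tek: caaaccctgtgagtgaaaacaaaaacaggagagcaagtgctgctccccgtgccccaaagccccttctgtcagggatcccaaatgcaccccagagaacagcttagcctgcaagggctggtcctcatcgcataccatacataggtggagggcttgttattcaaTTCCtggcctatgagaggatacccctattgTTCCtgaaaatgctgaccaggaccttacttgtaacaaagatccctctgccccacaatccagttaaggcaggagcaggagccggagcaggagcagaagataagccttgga

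The Tie1 window (chr4:118489800-118490099, minus strand) held 9 GGAA matches on both strands together, a number reached by 1.59% of 32851 promoter windows of the same length. The Kdr window (chr5:75978406-75978705, minus strand) held 5, the Flt1 window (chr5:147725962-147726261, minus strand) 4 and the Tek window (chr4:94739039-94739338, plus strand) 2. Numbers as high as those of Kdr, Flt1 and Tek were reached by 28.6%, 46.3% and 84.6% of windows, so they were not rare. A GGAA match was present in 96.0% of all windows, with a median of 3, so a single match says little. ACGTG was present in 19.6% of windows and GCGTG in 32.4%. Of the printed windows, Kdr had 2 GCGTG matches and Flt1 had 1, and none had ACGTG. Of those not printed, the Hif1a window (chr12:73907617-73907916, plus strand) had 3 ACGTG matches, with 1 CACGTG counted on both strands, and the 2 Vegfa windows had 0 and 1. These letters describe the windows only, and binding was not measured.

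The values have an unusual scale, which sets how every difference below is written. Levels ran from 5.12 to 13.9, as log2 intensities do, but across the 10 arrays probe sets varied with a median SD of 6.68 millionths of a deposited unit, so a difference is not a log2 fold change. Values are therefore given in millionths of a deposited unit above that gene's lowest array, and group differences also as Hedges' g, which is maslinic acid minus vehicle in SDs within groups, with a 95% confidence interval (5 mice each). The files have no detection calls. All 6 synovial fibroblast markers measured, Prg4 (lubricin) among them, had levels above the table's median of 6.74, and so did all 8 skeletal muscle markers, Acta1 (skeletal actin) at 13.3 among them, although muscle was cleaned off before extraction. Vehicle replicates 3 and 5 stood apart. Over 6743 genes with 10 distinct values, replicate 5 held the lowest value in 31.7% and replicate 3 in 20.4%, against 2.88% to 9.31% for each of the other arrays, and the members' group differences and the main lists are given with and without both.

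Maslinic acid was compared with vehicle to ask whether treatment of arthritic mice changed vessel content or growth factor supply. None of the 10 members passed. In limma with Benjamini-Hochberg adjustment over 18128 genes the adjusted p ranged from 0.603 for Cdh5 to 0.923 for Hif1a, and the threshold of 0.05 was passed by 0 genes of the table (0%). At an unadjusted p under 0.05 there were 0 of 10 members, against 8.56% of all genes (4.22% higher and 4.34% lower). The groups overlapped in all 10 members, against 1.38% of all genes in which they did not. Of the members, 9 had a higher mean with maslinic acid, with Angpt1 the exception, against 47.9% of all genes and 60.2% of genes with 10 distinct values. Their median g was 0.45, against 0 over all genes and 0.23 over genes with 10 distinct values. Without vehicle replicates 3 and 5, 6 of 10 had a higher mean (46.7% of all genes) and the median was 0.13. Other scalings moved the whole table: 29.3% of all genes had a higher mean after quantile normalization and 14.9% with arrays centred on their medians, where the median g over all genes was -0.18 and -0.39, so a gene can turn under them with the whole table.

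**Figure D1:**
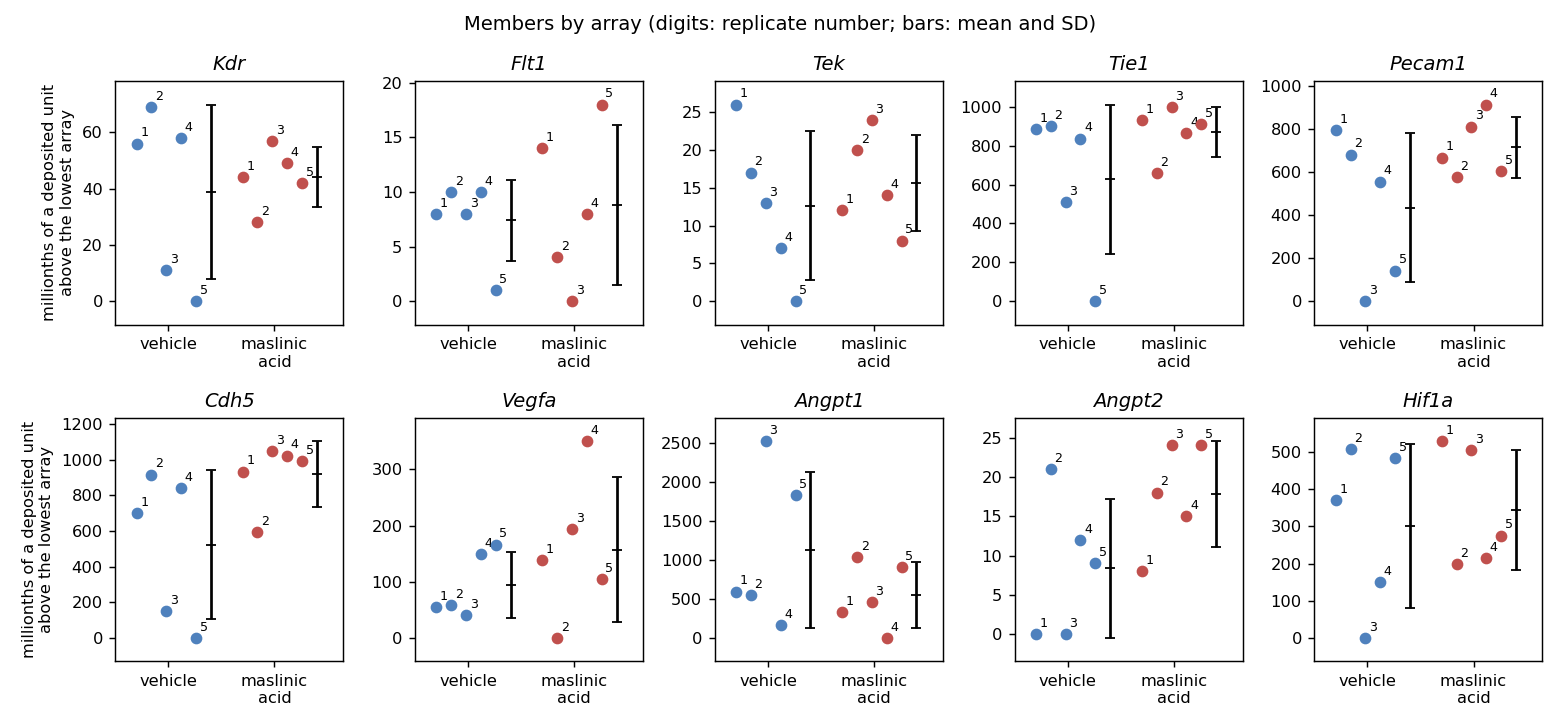
Values of the 10 members on each of 5 vehicle and 5 maslinic acid arrays, in millionths of a deposited unit above the gene's lowest array (vertical axis, its own scale in each panel); points carry replicate numbers, and bars give the mean and SD of a group. Vehicle replicates 3 and 5 are the lowest 2 arrays for Kdr, Tie1, Pecam1 and Cdh5 and the highest 2 for Angpt1.

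Among the vessel genes, all 6 had a higher mean with maslinic acid (median g = 0.55), although Kdr, Flt1 and Tek turned lower when arrays were centred on their medians and Flt1, Tek and Pecam1 after quantile normalization. Kdr, Flt1 and Tek spanned 69, 18 and 26 millionths and the array medians 272, so their turn under centring says little about these genes. The same limit applies below to other genes with a range under that of the medians, among them Angpt2, Plcg1, Unc5b and Arnt. The direction of the 6 vessel genes rested on vehicle replicates 3 and 5. Without them 2 of 6 were higher and the median g was -0.047. Fewer endothelial cells and less RNA per cell cannot be told apart in such bulk tissue.

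Cdh5, the adhesion gene most restricted to endothelium, had the largest g of the members. Vehicle arrays 1 to 5 lay at 699, 916, 150, 840 and 0 millionths. The maslinic acid arrays lay at 933, 595, 1047, 1022 and 990 millionths. All maslinic acid arrays but replicate 2 were above every vehicle array, and the vehicle group was split, with 2 arrays far below the other 3. The difference of 396 ± 204 millionths (SE) gave g = 1.11 (95% CI -0.16 to 2.32), with an exact permutation p of 0.0873 (two-sided, 252 ways to divide the arrays), whose smallest possible p is 0.00794. Without vehicle replicates 3 and 5 the difference was 99.1 millionths and g was 0.53 (-0.77 to 1.78). A second, dimmer probe set of Cdh5 with a range of 18 millionths had g = -0.63.

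Pecam1 encodes CD31, which platelets and leukocytes carry as well as endothelium. Vehicle arrays lay at 793, 680, 0, 555 and 142 millionths, and maslinic acid arrays at 666, 577, 810, 912 and 602 millionths. The same 2 vehicle arrays were low and the groups overlapped otherwise (g = 0.95, 95% CI -0.28 to 2.14; exact permutation p = 0.143). Without them g was 0.24 (-1.02 to 1.48). Blood cell markers were measured beside it. Vehicle replicate 3, the lowest for Pecam1, had the highest mean z-score of platelet markers (1.60) and of neutrophil markers (1.30) of all arrays, while replicate 5, the next lowest, had the lowest platelet score of its group (-0.35) and a neutrophil score of 0.19. All 6 platelet markers and all 7 neutrophil markers measured had lower means with maslinic acid, against 48.3% of all genes. Their median g was -1.08 and -0.93, and -1.31 and -1.06 without vehicle replicates 3 and 5. None was higher with arrays centred on their medians, where only 14.9% of all genes were higher. The medians were then -1.06 and -0.53, against -0.39 over all genes. After quantile normalization they were -0.48 and 0, against -0.18 over all genes. The marker scores ran from -0.35 to 1.60 in vehicle and -1.22 to 0.18 in maslinic acid mice for platelets, and from -0.10 to 1.30 and -0.64 to -0.28 for neutrophils. Their part in the Pecam1 values was not tested.

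Tie1, the orphan partner of TIE2, lay at 888, 901, 509, 837 and 0 millionths in vehicle and 932, 659, 999, 866 and 911 millionths in maslinic acid mice. Apart from vehicle replicates 3 and 5, all arrays were between 659 and 999 millionths. With all arrays g was 0.77 (95% CI -0.43 to 1.93; exact permutation p = 0.198), and without these 2 it was -0.016 (-1.26 to 1.23). Tek, the angiopoietin receptor, spanned only 26 millionths. Its vehicle arrays lay at 26, 17, 13, 7 and 0 millionths and its maslinic acid arrays at 12, 20, 24, 14 and 8 millionths. The groups were interleaved (g = 0.33, -0.81 to 1.45, and -0.12 without vehicle replicates 3 and 5), with the highest and the lowest array both in the vehicle group.

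Kdr, the main VEGF receptor, showed how much the 2 arrays decided. Vehicle arrays lay at 56, 69, 11, 58 and 0 millionths. Maslinic acid arrays lay at 44, 28, 57, 49 and 42 millionths. The means were 38.8 ± 31.0 and 44.0 ± 10.7 millionths (SD, n = 5 each), with g = 0.20 (95% CI -0.93 to 1.32; exact permutation p = 0.730). Without vehicle replicates 3 and 5 the direction turned, with g = -1.54 (-3.01 to 0.0086) and an adjusted p of 0.702 in limma. Flt1, the decoy-like VEGF receptor, held 7 distinct values in a range of 18 millionths, so rounding to 6 decimals limits it. Its arrays lay at 8, 10, 8, 10 and 1 millionths in vehicle and 14, 4, 0, 8 and 18 millionths in maslinic acid mice, and the maslinic acid group held both the lowest and the highest value (g = 0.22, -0.91 to 1.34, and -0.077 without vehicle replicates 3 and 5).

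**Figure D2:**
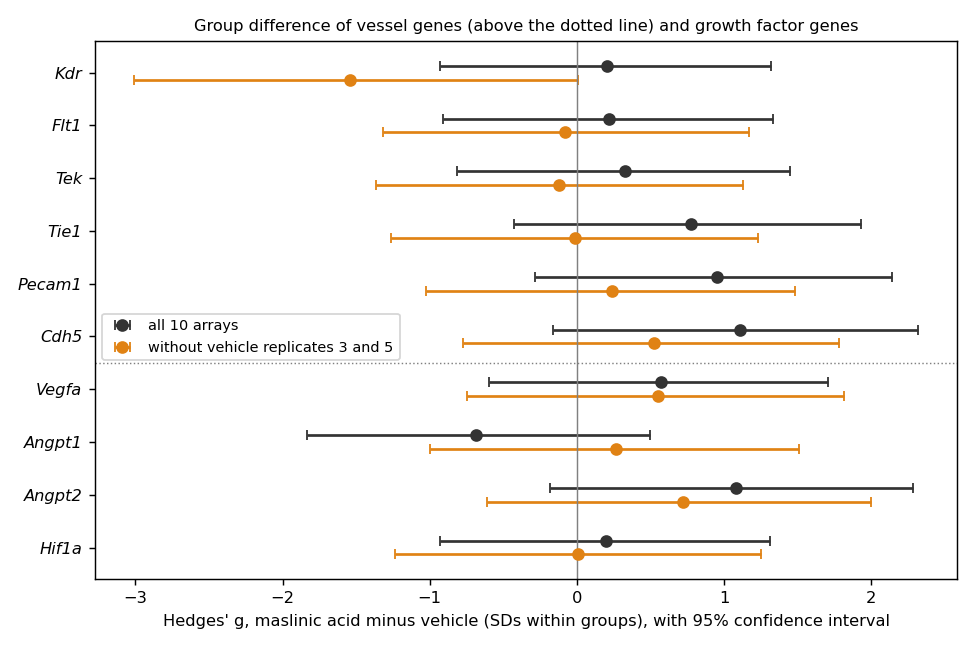
Hedges' g of each member, maslinic acid minus vehicle in SDs within groups, with 95% confidence intervals, from all 10 arrays (black, 5 per group) and without vehicle replicates 3 and 5 (orange, 3 vehicle arrays). All black intervals include 0; without the 2 arrays Kdr moves from 0.20 to -1.54 and Angpt1 from -0.69 to 0.26, and Vegfa is at 0.57 and 0.55, though it ranged from 0.20 to 1.09 when single arrays were left out.

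In the growth factor genes, means with maslinic acid were higher for Vegfa, Angpt2 and Hif1a and lower for Angpt1 (median g = 0.39), and without vehicle replicates 3 and 5 higher for all 4 (median 0.41), but Vegfa turned lower after quantile normalization (g = -0.70) and Angpt2 with arrays centred on their medians (-0.29). The median g of the 4 was then -0.34 and -0.12, beside -0.18 and -0.39 over all genes under the same scalings.

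Vegfa arrays lay at 55, 58, 40, 149 and 166 millionths in vehicle mice. In maslinic acid mice they lay at 139, 0, 193, 350 and 104 millionths. Replicate 4 of the maslinic acid group was the highest and replicate 2 the lowest of all, and the spread with treatment (SD 129 against 59.0 millionths) was the larger. The difference of 63.6 ± 63.4 millionths (SE) gave g = 0.57 (95% CI -0.60 to 1.71; exact permutation p = 0.381). It was at 0.55 without vehicle replicates 3 and 5, but single maslinic acid arrays moved it, to 0.20 without replicate 4 and 1.09 without replicate 2. Vehicle replicate 5, with the lowest Cdh5, Kdr, Tek and Tie1 values, had the highest Vegfa value of its group, and vehicle replicate 3 the lowest.

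Hif1a lay at 370, 508, 0, 149 and 484 millionths in vehicle mice and 529, 198, 506, 214 and 275 millionths in maslinic acid mice. Both groups held high and low arrays (g = 0.20, 95% CI -0.93 to 1.32; exact permutation p = 0.746), and without vehicle replicates 3 and 5 g was 0.011. Its 4 probe sets gave g of 0.20, 0.02, -0.68 and -0.93, so not even a direction could be given. HIF-1 alpha is controlled largely through protein breakdown, which an array does not measure.

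The 2 angiopoietins differed in direction. Angpt1 lay at 594, 545, 2522, 162 and 1832 millionths in vehicle and 330, 1033, 462, 0 and 909 millionths in maslinic acid mice. The high arrays were vehicle replicates 3 and 5, the ones with low endothelial genes, and the remaining 8 overlapped freely. The g was -0.69 (95% CI -1.84 to 0.50; exact permutation p = 0.302) with all arrays and 0.26 without these 2. A second Angpt1 probe set followed the first across the arrays and had g = -1.19. Angpt2 lay at 0, 21, 0, 12 and 9 millionths in vehicle and 8, 18, 24, 15 and 24 millionths in maslinic acid mice. Maslinic acid replicates 3 and 5 exceeded every vehicle array, but 24 millionths is its whole range (g = 1.08, -0.18 to 2.29; exact permutation p = 0.111). Without vehicle replicates 3 and 5 Angpt2 was at 0.72 (-0.61 to 2.00), and its second probe set, with 6 distinct values, at -0.50.

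Vessel content and growth factor supply were also set side by side on each array as the mean z-score of the 6 and of the 4 genes. The mean vessel score was -0.31 ± 1.05 (SD, n = 5) for vehicle and 0.31 ± 0.29 (SD, n = 5) for maslinic acid. That of growth factors was -0.15 ± 0.48 and 0.15 ± 0.32. The vessel score was -0.98 and -1.81 in vehicle replicates 3 and 5 and lay between -0.21 and 0.56 in the other 8 arrays. The growth factor score of vehicle replicate 5 was 0.52, second only to 0.60 in maslinic acid replicate 3, while that of vehicle replicate 3 was -0.49. The 2 arrays lowest in vessel genes thus differed in growth factors. The median r between pairs of the 4 growth factor genes was -0.10, so their score does not stand for a shared course. The difference between both scores was -2.33 in vehicle replicate 5 and between -0.49 and 1.11 in the other arrays.

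Correlations over the 10 arrays asked which members vary together. Of 45 pairs, 8 had a permutation p of Pearson's r under 0.05 after Benjamini-Hochberg adjustment over the 45 (100000 permutations, two-sided), and 0 had one for Spearman's rho. Of these 8, 5 joined vessel genes, all positively. Tie1 and Cdh5 had the highest r of all pairs, 0.93 (adjusted p = 0.0117; rho = 0.84, adjusted p = 0.175), followed by Pecam1 and Cdh5 with 0.89 (adjusted p = 0.0307; rho = 0.78, adjusted p = 0.247) and Kdr and Tie1 with 0.88 (adjusted p = 0.0166; rho = 0.56, adjusted p = 0.340). The other 3 joined Angpt1, negatively, with Pecam1 (r = -0.92, adjusted p = 0.0207; rho = -0.66, adjusted p = 0.289), Cdh5 (r = -0.88, adjusted p = 0.0307; rho = -0.72, adjusted p = 0.289) and Kdr (r = -0.84, adjusted p = 0.0307; rho = -0.71, adjusted p = 0.289). Vehicle replicates 3 and 5 were the arrays farthest from the median for Cdh5, Pecam1, Kdr and Tie1. Without them 0 of 45 pairs passed, with r of 0.79 for Tie1 and Cdh5 (permutation p = 0.0155, adjusted p = 0.348), 0.42 for Pecam1 and Cdh5, 0.61 for Kdr and Tie1, and -0.50 for Cdh5 and Angpt1. The relations other than that of Tie1 and Cdh5 thus rest in large part on the 2 arrays. That of Tie1 and Cdh5 may rest on few arrays too. Of the 8 arrays, maslinic acid replicate 2 was the lowest for both (659 and 595 millionths), and r without it as well was not tested. Over all 10 arrays, with vehicle replicates 3 and 5 included, Tie1 and Cdh5 were at 0.86 after quantile normalization (adjusted permutation p = 0.213) and 0.90 with centred arrays (adjusted permutation p = 0.00122). With centred arrays Pecam1 was at 0.86 with Cdh5 and -0.81 with Angpt1 (adjusted permutation p = 0.0180 and 0.0278), but after quantile normalization at 0.26 and -0.26. Those of Kdr turned with the scaling: with Pecam1 r was -0.30 after quantile normalization and -0.29 with centred arrays, and with Angpt1 0.066 and 0.70. Kdr spanned only 69 millionths and the array medians 272. Its r with centred arrays thus largely follows the medians subtracted, and cannot decide whether Kdr varies with these genes.

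**Figure D3:**
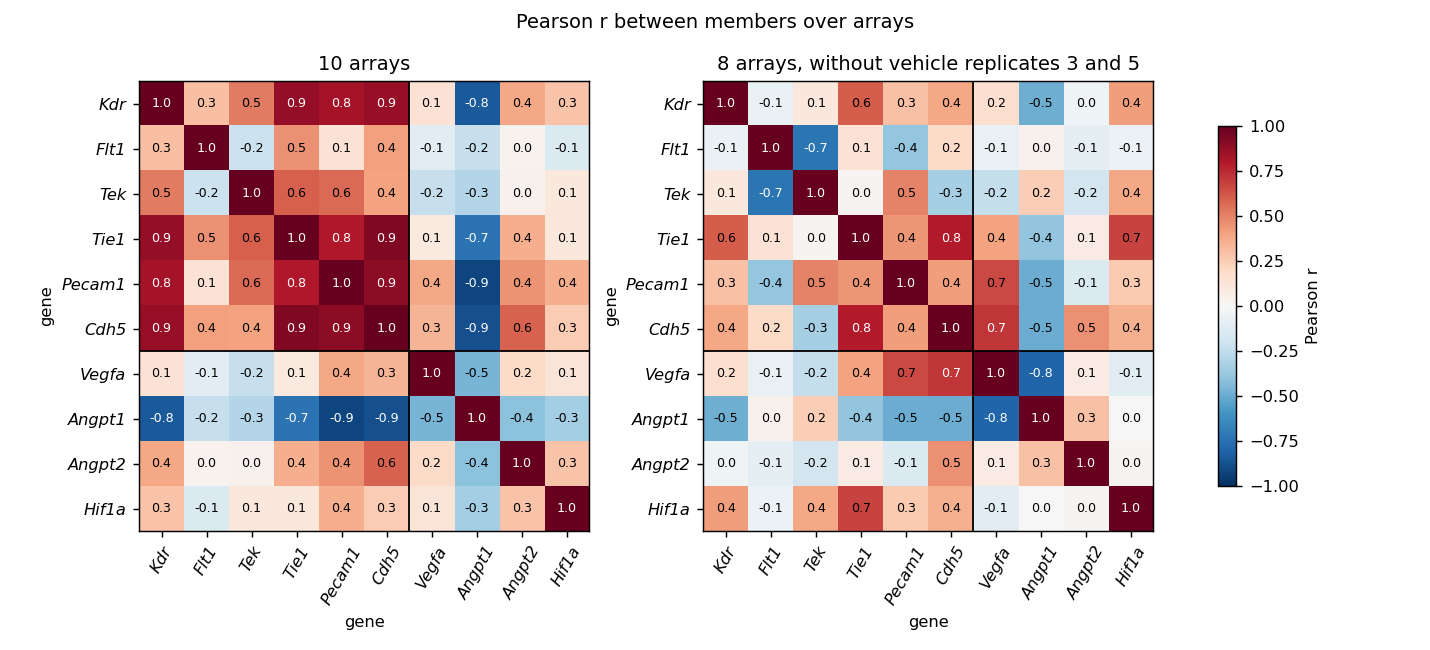
Pearson r between each pair of members over 10 arrays (left) and over the 8 arrays without vehicle replicates 3 and 5 (right); lines divide the 6 vessel genes from the 4 growth factor genes. On the left Kdr, Tie1, Pecam1 and Cdh5 correlate between 0.80 and 0.93 with each other and negatively with Angpt1; on the right Tie1 and Cdh5 are at 0.79 and the other pairs of these 4 at 0.61 or less.

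Vegfa and Hif1a had no pair past the threshold. Vegfa had r = 0.34 with Cdh5 and 0.14 with Kdr over all arrays (adjusted permutation p = 0.589 and 0.817; rho = 0.55 and 0.22, adjusted p = 0.340 and 0.670). With Hif1a, its regulator in hypoxia, r was 0.13 (adjusted permutation p = 0.831; rho = 0.28, adjusted p = 0.666). Over the 8 other arrays Vegfa had r = 0.72 with Cdh5 and -0.80 with Angpt1 (permutation p = 0.0419 and 0.0138, adjusted p = 0.377 and 0.348). Hif1a and Tie1 were at r = 0.10 (adjusted permutation p = 0.842; rho = 0.64, adjusted p = 0.289) over all arrays and at 0.67 over these 8 (permutation p = 0.0302, adjusted p = 0.377; rho = 0.81). With the other vessel genes Hif1a had r between -0.14 and 0.36. Flt1 and Tek, of small range, had r between -0.22 and 0.59 with every other vessel gene. Over the 8 arrays Flt1 and Tek were at -0.73 with each other (permutation p = 0.0378, adjusted p = 0.377).

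**Figure D4:**
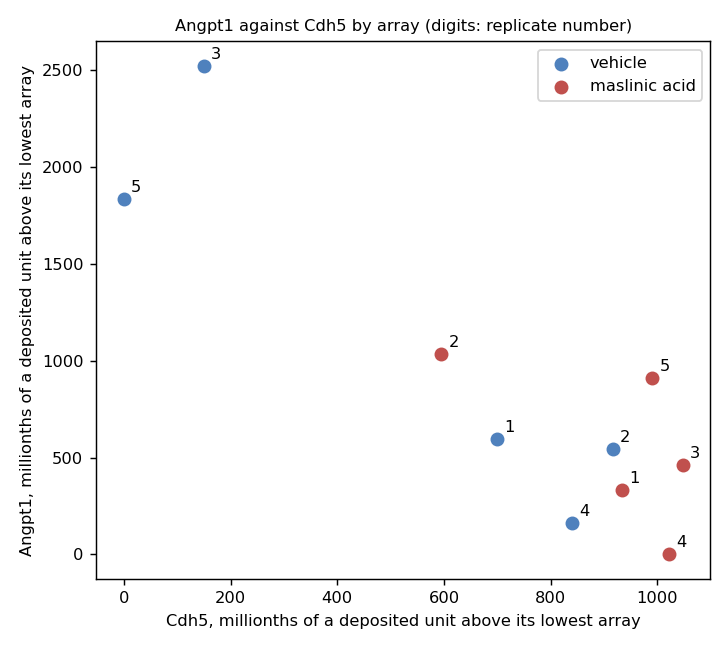
Angpt1 against Cdh5 on each of 10 arrays, both in millionths of a deposited unit above the gene's lowest array; blue points are vehicle and red points maslinic acid mice, with replicate numbers. Vehicle replicates 3 and 5 lie apart at the upper left, with Angpt1 at 2522 and 1832 and Cdh5 at 150 and 0.

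The genes most like Cdh5 over the arrays, by Pearson r among 6742 others with 10 distinct values, were Col6a2 (r = 0.98), Gpc4 (0.97), Col4a2 (0.97), Setdb1 (0.97) and Sec24c (0.97). Col4a2 encodes a chain of basement membrane collagen, and Col6a2 a chain of microfibrillar collagen. Without vehicle replicates 3 and 5 their r with Cdh5 ran from 0.80 to 0.92. The genes most like Vegfa were Arntl, the clock factor BMAL1 (r = 0.85), Avil (0.81), Rtp4 (0.77), Tnn (0.76) and Cxcl11 (0.72). Without the 2 arrays these ran from 0.69 to 0.88. Both lists are the top of 6742 genes ranked over 10 arrays, where high r can arise by chance. How high the top r would run by chance was not tested, so no shared course is read from them. The r without the 2 arrays reused arrays that had chosen the genes, so it was no independent check.

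Other genes of vessel biology were followed in 6 lists, with 77 of 78 genes measured. Of these, 0 passed in limma over all genes, and 8 had an unadjusted p under 0.05 (10.4%, against 8.56% of all genes), 7 of them higher (4.22% of all genes) and 1 lower (4.34%). Their groups did not overlap in 4 genes (5.19%, against 1.38% of all genes). The median g of each list below is read against 0 over all genes and -0.041 without vehicle replicates 3 and 5. It was 0.16 over genes above the table's median level and 0.23 over genes with 10 distinct values. Counts of higher means are read against 47.9% of all genes and 60.2% of genes with 10 distinct values. After quantile normalization that share was 29.3% of all genes, and with arrays centred on their medians 14.9%.

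Among other VEGF and angiopoietin pathway genes 11 of 13 had higher means (median g = 0.66, and 0.32 without vehicle replicates 3 and 5). The count was 6 of 13 after quantile normalization (29.3% of all genes) and 6 of 13 with arrays centred on their medians (14.9%). Plcg1, the phospholipase that VEGFR2 activates, lay at 23, 35, 33, 33 and 0 millionths in vehicle and 36, 48, 73, 39 and 63 millionths in maslinic acid mice. Its groups were adjacent without overlap (g = 1.60, 95% CI 0.21 to 2.93; adjusted p = 0.535 in limma), but it was at -0.081 with arrays centred on their medians and at -0.45 after quantile normalization. Nrp1, the VEGF co-receptor neuropilin 1, was at 1.18 (-0.11 to 2.41), and at -0.60 after quantile normalization. Vegfd, a ligand of the lymphatic VEGF receptor, was at 0.91 (-0.32 to 2.09).

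The list of other endothelial identity genes was close to balanced, with 16 of 25 higher (median g = 0.31), and 10 of 25 higher and a median of -0.28 without vehicle replicates 3 and 5, 11 higher after quantile normalization and 10 with centred arrays. Myct1, an endothelial membrane protein gene, was lower with maslinic acid at 172, 200, 260, 118 and 107 millionths in vehicle against 70, 146, 18, 60 and 0 millionths. Of the maslinic acid arrays 4 were below every vehicle array (g = -1.70, 95% CI -3.06 to -0.28; adjusted p = 0.533 in limma), and without vehicle replicates 3 and 5 it was at -1.74, but at -0.17 after quantile normalization and -1.12 with centred arrays. Aplnr, the apelin receptor, was at 1.35 (0.024 to 2.61) and Robo4, an endothelial guidance receptor, at 1.19 (-0.10 to 2.42), both with overlapping groups, and at 0.84 and 0.83 without vehicle replicates 3 and 5. Endothelial identity genes thus did not share 1 direction.

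Notch and tip cell genes were higher in 6 of 11 (median g = 0.033, and -0.029 with 5 of 11 higher without vehicle replicates 3 and 5), in 5 of 11 after quantile normalization and in 2 of 11 with arrays centred on their medians. The 3 of lowest p were Notch4, an endothelial Notch receptor (g = 1.37, 95% CI 0.039 to 2.64), the Notch ligand gene Jag1 (1.24, -0.060 to 2.48) and the netrin receptor Unc5b (0.71, -0.48 to 1.86), of which Jag1 and Unc5b were below 0 after quantile normalization (-0.17 and -0.56). Without vehicle replicates 3 and 5 these were at 1.04, 0.76 and 0.26. Angiogenesis inhibitors were higher in 5 of 7 (median g = 0.59, and 0.24 without vehicle replicates 3 and 5), in 6 after quantile normalization and in 4 with centred arrays. Thbs2, thrombospondin 2, was at 1.47 (0.11 to 2.76) and Thbs1 at 0.65 (-0.53 to 1.79). Thbs2 was at 1.13 without vehicle replicates 3 and 5, 1.37 after quantile normalization and 1.45 with centred arrays. Thbs1 was at 0.29 without vehicle replicate 5, 0.24 without vehicle replicates 3 and 5 and 0.011 after quantile normalization. Serpinf1, the antiangiogenic pigment epithelium-derived factor, lay between 0 and 10473 millionths in vehicle and 10912 and 17548 millionths in maslinic acid mice, with no overlap. Its g was 1.17 (-0.11 to 2.39) with an adjusted p of 0.590 in limma. Vehicle replicate 5 alone was far below the other arrays, but without it g was 1.19, and without vehicle replicates 3 and 5 it was 0.99. Serpinf1 was at 1.09 after quantile normalization and 1.16 with centred arrays.

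Hif1a belongs to a family of hypoxia-inducible factor subunits. Of its other subunits and regulators 5 of 7 had higher means (median g = 0.51, and 0.90 without vehicle replicates 3 and 5). The count was 2 of 7 after quantile normalization (29.3% of all genes) and 2 of 7 with arrays centred on their medians (14.9%). Arnt, the constant partner (HIF-1 beta), lay at 15, 16, 0, 21 and 0 millionths in vehicle and 27, 28, 30, 28 and 26 millionths in maslinic acid mice. The groups did not overlap (g = 2.25, 95% CI 0.66 to 3.77; exact permutation p = 0.00794, the smallest possible; adjusted p = 0.505 in limma), on 8 distinct values. Arnt was at 4.11 without vehicle replicates 3 and 5, but at -0.21 with arrays centred on their medians and -1.14 after quantile normalization. The mean of all Arnt probe sets gave a smaller g of 1.03. Hif3a, a subunit that can restrain the others, lay at 39, 26, 34, 30 and 0 millionths against 52, 60, 43, 112 and 78 millionths. It was higher on all maslinic acid arrays (g = 1.77, 0.33 to 3.14; adjusted p = 0.531) and at -0.16 after quantile normalization. Epas1 (HIF-2 alpha), abundant in endothelium, was at 0.74 (-0.46 to 1.89), and at -0.17 without vehicle replicates 3 and 5.

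Hypoxia target genes were higher in 12 of 14 (median g = 0.44), in 8 of 14 without vehicle replicates 3 and 5 (median 0.16), in 7 after quantile normalization and in 10 with centred arrays. Ddit4, a stress gene that hypoxia and glucocorticoids induce, lay at 2475, 23696, 0, 24385 and 18982 millionths in vehicle and 17298, 60448, 21255, 92372 and 63133 millionths in maslinic acid mice. Maslinic acid replicates 2, 4 and 5 were above every vehicle array (g = 1.41, 95% CI 0.065 to 2.68; adjusted p = 0.557 in limma). Bnip3, a mitophagy receptor, was at 0.83 (-0.38 to 1.99), and Car9, carbonic anhydrase 9, was at -1.28 (-2.52 to 0.032) on 6 distinct values, and at 0.82 after quantile normalization.

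Markers of pericytes and synovial fibroblasts were also low in vehicle replicates 3 and 5, while those of skeletal muscle were not. Pericyte markers, of the mural cells that make angiopoietin 1, had higher means in 7 of 8 (median g = 0.88, and 0.57 without the 2 arrays), in 5 of 8 after quantile normalization and in 6 of 8 with centred arrays. At an unadjusted p under 0.05 there were 3 of 8 markers, all higher, against 4.22% of all genes, and 0 passed after adjustment (Pdgfrb at g = 1.52, Abcc9 at 1.46 and Notch3 at 1.34). Without the 2 arrays these 3 were at 1.32, 1.20 and 1.13. Rgs5, the 1 marker with a lower mean, was at -0.14, and at 0.54 without the 2 arrays. The pericyte score was -1.16 and -0.99 in vehicle replicates 3 and 5 and ran from -0.22 to 0.81 in the other arrays, opposite to Angpt1 there. Synovial fibroblast markers were higher in 6 of 6 (median g = 0.75, and 0.19 without the 2 arrays), in 4 of 6 after quantile normalization and in 5 of 6 with centred arrays, with scores of -0.76 and -1.14 in these arrays and -0.42 to 0.99 in the others. Skeletal muscle markers had higher means in 8 of 8 (median g = 0.41, and 0.66 without the 2 arrays), and in 4 of 8 after quantile normalization (29.3% of all genes). Their scores of 0.10 and -0.08 in vehicle replicates 3 and 5 lay inside the range of the other arrays, -1.74 to 0.95. The part of any of these in the vessel values was not tested.

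**Figure D5:**
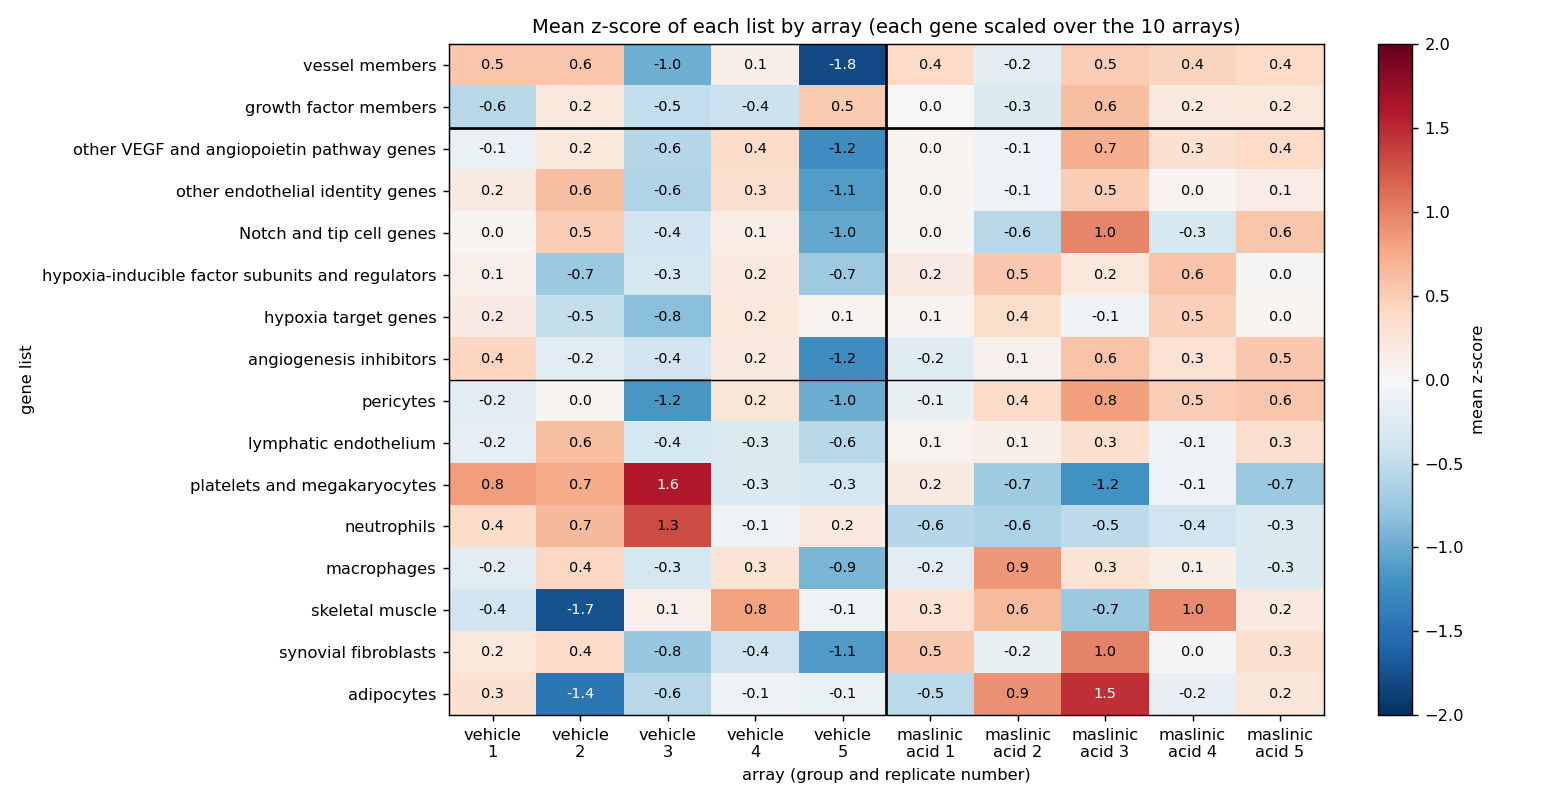
Mean z-score per array (columns) of the vessel and growth factor members, 6 lists of vessel biology and 8 cell type marker lists (rows), each gene scaled over the 10 arrays; red is higher and blue lower. Vehicle replicates 3 and 5 are the lowest 2 arrays for the vessel members (-0.98 and -1.81) and for pericytes (-1.16 and -0.99), while platelet and neutrophil markers are highest in vehicle replicate 3.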

How the data were processed

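Total RNA (100 ng) of 10 synovium samples was labelled for Affymetrix mouse arrays, 1 per mouse, grouped by sample title. The authors' deposited values are taken as a score, since summary and normalization are, in the sources used here, not given; the submitters' processing notes name R 3.2.1. Values have 6 decimals and were taken as whole millionths. Of 39993 probe sets, 34202 named 1 gene in the platform annotation. The scores were fitted as they stand in limma 3.58.1 (lmFit, eBayes; R 4.3.3), over all 10 arrays with no covariate; tests are two-sided, with a Benjamini-Hochberg threshold of 0.05 over all genes or probe sets. Single members were also tested by exact permutation over all 252 assignments. Python 3.11.15 with numpy 2.4.6, pandas 2.3.3 and scipy 1.17.1 gave correlations and intervals. The fitting procedure was tested on simulated data. Named are the members, the 3 genes of lowest p in each of 6 pathway lists, and the 5 most like Cdh5 and Vegfa. The pericyte genes with an unadjusted p under 0.05, and the 1 with a lower mean, were named after their values were seen. Listed genes without a probe set naming them alone are not counted. Members and lists were chosen with earlier results of these data known. Alternatives tried were a replicate block, arrays left out, quantile normalization, median centring, filters on level and distinct values, trended and robust eBayes, array weights, other probe sets and the exact Wilcoxon test. The number of arrays limits the precision.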

Additional observations from a re-analysis of the deposited data

Results flagged for a closer look

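Within groups of 5 arrays, 1 value lay far from the other 4 in 6 cases among 28 genes and 56 groups; such a gap arises by chance in about 1 in 20 groups. The number given is the gap to the nearest array as a share of the group's range, against a limit of 0.71. Vehicle replicate 5 was far below the rest for Flt1 (0.778), Unc5b (0.8), Serpinf1 (0.878) and Thbs1 (0.84). Maslinic acid replicate 2 was far below the rest for Cdh5 (0.748), and maslinic acid replicate 3 far above for Serpinf1 (0.76).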

How the results depend on the processing

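No member passed under any alternative run for it. The count of probe sets passing in limma was 0 in the reported analysis, 0 to 1 without single arrays, 8 after quantile normalization, and 0 with the exact Wilcoxon test (2741 at an unadjusted p under 0.05; 3617 in limma); that of genes was 0, 0 without single arrays, 3 after quantile normalization and 1 with trended and robust eBayes. Whether the numbers of the replicates pair the mice cannot be told from expression. Same-numbered deviations correlated from -0.38 to 0.32, and 2 of 5 vehicle and 2 of 5 maslinic acid arrays were most like their own number. With the replicate block 0 genes passed and median g was 0.48 for vessel and 0.37 for growth factor genes. Without single arrays the medians ran from 0.25 to 0.90 and from 0.12 to 0.67. Pairs of members with an adjusted correlation p under 0.05 numbered 8, and 0 to 8 without single arrays. The count was 0 without vehicle replicate 3 or without maslinic acid replicate 2, and 2 without vehicle replicate 5. It was 3 without maslinic acid replicate 3 and 4 without maslinic acid replicate 4. Without maslinic acid replicate 2 the 8 pairs kept r of 0.85 to 0.92 in size, with adjusted permutation p from 0.078 to 0.092. The count was 0 with both vehicle replicates 3 and 5 dropped, 0 after quantile normalization and 13 with arrays centred on their medians. Centring can itself produce r among the 4 members whose range is under that of the medians, so the 13 are not read as relations.

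Directions turned as follows. Without single arrays Kdr ran from -0.21 to 0.53 (lowest without vehicle replicate 5, and -0.071 without vehicle replicate 3), Flt1 from -0.17 to 0.65 (lowest without maslinic acid replicate 5, and -0.032 without vehicle replicate 5), Tek from -0.019 to 0.82 (lowest without vehicle replicate 5) and Hif1a from -0.18 to 0.44 (lowest without vehicle replicate 3, and -0.018 without maslinic acid replicate 1). With vehicle replicates 3 and 5 both dropped, g was -1.54 for Kdr, -0.077 for Flt1, -0.12 for Tek, -0.016 for Tie1, 0.26 for Angpt1 and -0.17 for Epas1. With arrays centred on their medians, which range over 272 millionths, more than the whole range of 4 members, it was -0.39 for Kdr, -0.37 for Flt1, -0.36 for Tek, -0.29 for Angpt2, -0.081 for Plcg1, -0.17 for Unc5b and -0.21 for Arnt, and r was -0.29 for Kdr and Pecam1, -0.20 for Kdr and Cdh5 and 0.70 for Kdr and Angpt1. After quantile normalization g was -0.36 for Flt1, -1.57 for Tek, -0.48 for Pecam1, -0.70 for Vegfa, -0.45 for Plcg1, -0.60 for Nrp1, -0.17 for Jag1, -0.56 for Unc5b, -1.14 for Arnt, -0.16 for Hif3a and 0.82 for Car9, and r was -0.30 for Kdr and Pecam1 and 0.066 for Kdr and Angpt1; the cause was not tested. Array weights gave -0.43 for Kdr and -0.16 for Tek. Other probe sets gave -0.16 and -0.15 for Flt1, -0.63 for Cdh5, -0.50 for Angpt2, and -0.93 and -0.68 for Hif1a, and means of all probe sets -0.35 for Hif1a and -0.12 for Unc5b. Rounding limits Flt1, Tek and Angpt2 most, and the depth of a probe set over background is unknown.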

Other observations

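Markers of 3 further cell types were measured. Lymphatic endothelial markers had higher means with maslinic acid in 5 of 6 (median g = 0.45), and in 3 of 6 without vehicle replicates 3 and 5 (median -0.056); 4 of 6 were higher under each of quantile normalization and median centring. Macrophage markers were higher in 5 of 6 (median g = 0.34, and 0.014 without the 2 arrays), also under both scalings. Adipocyte markers were higher in 4 of 4 measured (median g = 0.87, and 0.74 without the 2 arrays) and in 3 of 4 after quantile normalization, with vehicle replicate 2 at the lowest mean z-score (-1.44) and maslinic acid replicate 3 at the highest (1.46). None of these genes passed in limma over all genes.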
